A study of Rattus norvegicus and Mus musculus with 74 samples.

Results

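Tab2, Lmo4, Stk39 and Cyth3 are 4 genes at which the histone mark H3K9Ac (acetylated lysine of histone H3) in rat cortex stood far above the controls after prenatal exposure to valproate, and they were chosen by their measured rat H3K9Ac signal: its difference between exposed and control rats, and its difference between exposed rats given TAK-418 and those given vehicle. The rat H3K9Ac levels below are therefore a description and carry no test. The genes were found in tables of merged ChIP-seq regions by the gene names listed with each region: 19 of 72824 rat regions and 10 of 60110 mouse regions list 1 of the 4, among 20110 genes listed in rat and 23362 in mouse. For each gene, the region with the highest mean signal over the 36 libraries of its species is described first and is called the leading region.

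H3K9Ac, H3K4me3, H3K27me3 and H3K9me3 were profiled by ChIP-seq in frozen brain cortex. The Sprague-Dawley rats had a prenatal VPA (valproate) injection and were given TAK-418, or had the same exposure and were given vehicle, or were healthy controls given vehicle. The C57BL/6J mice had a prenatal injection of poly I:C (a double-stranded RNA that mimics viral infection) and were given TAK-418 or vehicle, or were healthy controls given vehicle. With 3 libraries for every group and mark there were 72 ChIP libraries, and the pooled input of either species was not used here. Age, dose and length of treatment are not in the labels. Nothing in the labels ties the 3 libraries of a group to different animals, so every p-value measures only the spread between these libraries, which may be technical.

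Valproate is an anticonvulsant that also inhibits histone deacetylases, the enzymes that remove acetyl groups such as H3K9Ac. TAK-418 is an inhibitor of LSD1 (gene Kdm1a), a demethylase of histone H3 lysine 4. H3K9Ac lies at active promoters and enhancers, H3K4me3 at active promoters, H3K27me3 at genes silenced by Polycomb and H3K9me3 in heterochromatin. Tab2 is an adaptor that binds ubiquitin chains below cytokine and Toll-like receptors and brings them to the kinase Map3k7, which starts NF-kB and stress kinase signalling. Lmo4 is a nuclear protein made of LIM domains that partners the cofactor Ldb1 and takes part in the patterning of cortical neurons. Stk39 (SPAK) is a kinase switched on by WNK kinases; it phosphorylates the cotransporters that set chloride in neurons, and so the response to GABA. Cyth3 is a cytohesin, an exchange factor that loads ARF GTPases at membranes rich in phosphoinositides.

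The leading regions of Tab2, Lmo4 and Stk39 lay at or next to the gene start, each with 1 CpG island and 1 promoter counted in it by the authors' table. Distances given here are those listed, and they run from the gene start to the middle of a region. Tab2's region was 599 bp long (rn5, chr1:3770000-3770599, middle 197 bp inside the gene) and spanned the start. Lmo4's was 799 bp long (chr2:268769200-268769999, middle 429 bp before the start), so by the listed distance the start lay just outside it. Stk39's was 4399 bp long (chr3:61242800-61247199, middle 693 bp before the start) and spanned the start. Cyth3 differed. Its leading region of 2999 bp (chr12:14928800-14931799) lay 23143 bp inside the gene, held no CpG island and no promoter, and was also listed for the neighbouring deubiquitinase gene Usp42. The promoters of the 3 genes with a leading region at or next to their start are printed because those regions had H3K9Ac and H3K4me3 intervals in all 9 libraries. Whether the printed windows lie inside the regions was not checked, and both Lmo4 regions count 1 promoter. They are RefSeq sequences of the GRCr8 assembly, 250 bases before to 50 after the start, 5′ to 3′ on the gene's minus strand, with every CG in capitals. The build differs from that of the regions, so the match is by gene and not by coordinate.
Tab2: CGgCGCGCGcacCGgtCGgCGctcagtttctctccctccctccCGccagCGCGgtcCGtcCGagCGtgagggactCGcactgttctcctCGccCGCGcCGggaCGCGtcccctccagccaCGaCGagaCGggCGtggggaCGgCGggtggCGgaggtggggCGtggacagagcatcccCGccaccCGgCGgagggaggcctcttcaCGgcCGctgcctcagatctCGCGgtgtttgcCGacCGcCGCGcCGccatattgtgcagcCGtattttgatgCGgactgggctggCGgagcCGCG
Lmo4: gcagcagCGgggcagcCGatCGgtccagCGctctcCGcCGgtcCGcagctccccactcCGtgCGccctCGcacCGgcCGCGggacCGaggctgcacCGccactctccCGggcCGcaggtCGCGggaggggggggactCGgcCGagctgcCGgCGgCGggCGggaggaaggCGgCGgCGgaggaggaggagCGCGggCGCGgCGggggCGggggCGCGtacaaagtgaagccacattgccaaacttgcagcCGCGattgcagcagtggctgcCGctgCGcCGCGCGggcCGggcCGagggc
Stk39: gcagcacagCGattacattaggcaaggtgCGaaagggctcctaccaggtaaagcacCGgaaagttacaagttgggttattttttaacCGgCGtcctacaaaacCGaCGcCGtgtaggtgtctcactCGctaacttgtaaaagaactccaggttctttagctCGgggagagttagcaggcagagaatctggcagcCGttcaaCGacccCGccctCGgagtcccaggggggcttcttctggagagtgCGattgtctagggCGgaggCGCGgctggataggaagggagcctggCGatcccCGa
The letters CG, which read the same on both strands, occurred 45 times in the Tab2 window, 45 times in that of Lmo4 and 20 times in that of Stk39. All 4 genes matched the promoter table, in which 94.5% of 33469 promoters of the same length hold at least 1 CG and the median is 7. At least 45 were held by 1.66% of promoters and at least 20 by 24.2%. The Cyth3 window held 27, a count reached by 13.9%.

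**Figure D1:**
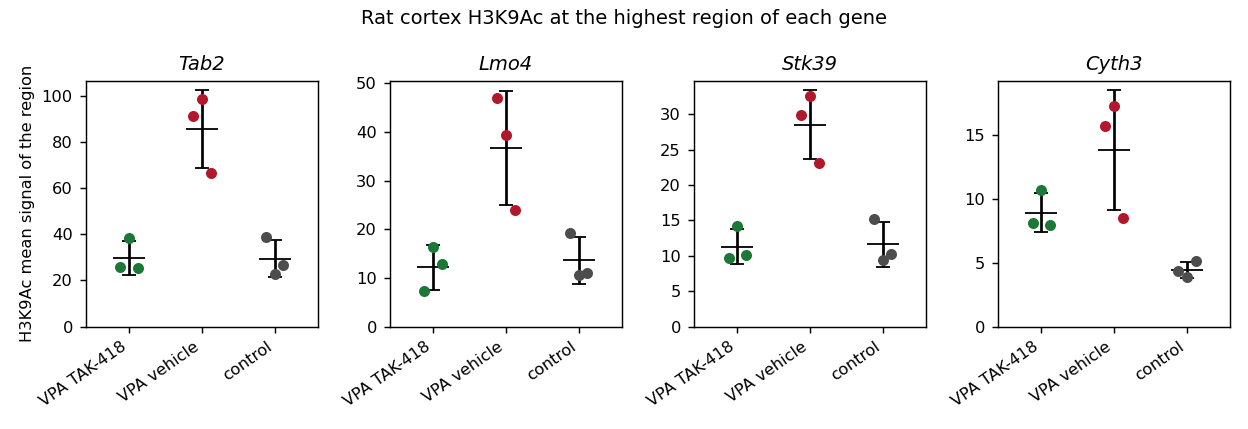
Mean H3K9Ac signal (vertical axis, deposited units, scaled separately for each gene) at the leading rat region of the 4 genes in VPA rats given TAK-418, VPA rats given vehicle and controls. Points are libraries, the horizontal mark is the mean of 3 and the bar is 1 SD. At Tab2, Lmo4 and Stk39 the TAK-418 points overlap the controls, with 1 Lmo4 point at 7.25 below all of them, and at Cyth3 they lie above the controls.

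Tab2 carried the highest H3K9Ac of the 4. Its mean signal was 25.6, 38.3 and 25.4 in the 3 VPA TAK-418 libraries, 91.3, 98.6 and 66.7 in VPA vehicle, and 38.6, 22.8 and 26.8 in controls. Every vehicle library stood above every TAK-418 and every control library, and the TAK-418 and control values overlapped. On the scale log2(signal + 1), the vehicle mean was 1.52 above control (SE 0.273 from the spread within groups, n = 3 each), TAK-418 differed from vehicle by -1.497, and TAK-418 was 0.02 above control. The highest signal inside the region followed the mean, at 53 to 82 with TAK-418, 142 to 205 with vehicle and 51 to 77 in controls.

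At Lmo4 the mean signal was 7.25, 16.3 and 12.9 with TAK-418, 46.9, 39.3 and 23.9 with vehicle, and 19.2, 10.6 and 11.0 in controls. The 3 vehicle libraries were again above the other 6. Vehicle was 1.37 above control on the log2 scale (SE 0.407), TAK-418 was 1.53 below vehicle, and the difference of TAK-418 from control was -0.16 with that same SE. Stk39 had 9.66, 14.2 and 10.1 with TAK-418, 29.9, 32.7 and 23.1 with vehicle, and 15.2, 9.37 and 10.3 in controls. Its log2 differences were 1.24 for vehicle over control (SE 0.240), -1.27 for TAK-418 over vehicle and -0.03 for TAK-418 over control.

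Cyth3 stood as far above control in vehicle as the others, and with TAK-418 it was still above control. Its mean signal was 8.10, 10.7 and 7.95 with TAK-418, 15.7, 17.2 and 8.46 with vehicle, and 4.30, 3.88 and 5.12 in controls. All 3 vehicle and all 3 TAK-418 libraries were above all controls, while TAK-418 and vehicle overlapped through vehicle library 3. The log2 differences were 1.39 for vehicle over control (SE 0.273), -0.53 for TAK-418 over vehicle and 0.86 for TAK-418 over control. Ordered by the fall under TAK-418 among 17679 regions, Cyth3's leading region was at rank 5367, against 24 for Stk39, 8 for Tab2 and 6 for Lmo4. On the deposited scale, a rise with a return to the control level describes Tab2, Lmo4 and Stk39. After median centring of the libraries, TAK-418 was instead below control at these genes (-0.36, -0.55 and -0.41). The name reversal does not hold for Cyth3, where TAK-418 over control was 0.86 as deposited and 0.48 with centring.

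These values stand against a shift of nearly all rat regions in the same directions. Over the 17679 regions with an H3K9Ac interval called in at least 3 of 9 libraries, the median difference was 0.78 for VPA vehicle over control, -0.41 for TAK-418 over vehicle and 0.37 for TAK-418 over control. In vehicle, 4 of 4 genes did not overlap the controls, as did 85.8% of all regions in that direction, and limma called 90.8% of regions. With TAK-418, 3 of 4 lay wholly below vehicle, against 17.2% of regions, and limma called 9.58% of regions, 9.56% lower and 0.017% higher. Above control without overlap in TAK-418 was 1 of 4, Cyth3, against 55.6% of regions; limma called 0% there, with 3387 regions at unadjusted p under 0.05. Since these shares come from the contrasts that chose the genes, nothing is read from them beyond the position of each gene. The comparisons with vehicle share the 3 vehicle libraries, so a rise and a fall at 1 region are not independent of each other.

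**Figure D2:**
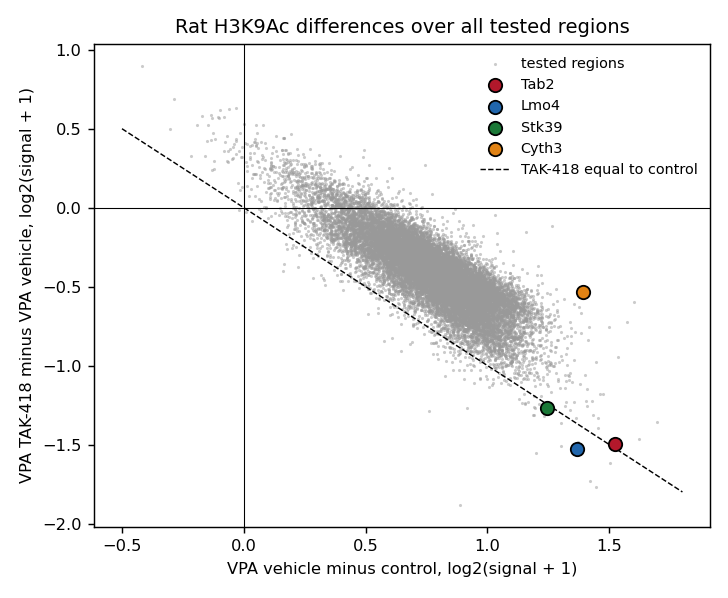
Each grey point is 1 of 17679 rat regions, placed by its H3K9Ac difference of VPA vehicle minus control (horizontal axis) and of VPA TAK-418 minus VPA vehicle (vertical axis), both on the log2(signal + 1) scale. On the dashed line TAK-418 equals control. Tab2, Lmo4 and Stk39 lie on or near that line at the lower right, and Cyth3 lies well above it.

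Relative to their own library, Tab2, Lmo4 and Stk39 averaged lower with TAK-418 than in controls. Each value was divided by the median signal of the tested regions in the same library, which ranged from 5.36 to 7.27 with TAK-418, 6.02 to 11.0 with vehicle and 4.32 to 5.13 in controls. Tab2 was then 3.86, 5.27 and 4.74 times the median with TAK-418, 9.21, 9.00 and 11.1 times with vehicle, and 7.52, 5.29 and 5.88 times in controls. Stk39 was 1.46, 1.95 and 1.88 times the median with TAK-418, 3.02, 2.98 and 3.84 times with vehicle, and 2.97, 2.17 and 2.25 times in controls. These values come from the libraries that chose the genes and are a description. Lmo4 averaged 1.92 ± 0.716 times with TAK-418, 4.09 ± 0.579 with vehicle and 2.87 ± 0.765 in controls (SD, n = 3). Cyth3 averaged 1.39 ± 0.146 with TAK-418, 1.52 ± 0.0992 with vehicle and 0.952 ± 0.149 in controls.

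After median centring of the log2 values, the vehicle rise over control became 0.74 for Tab2, 0.59 for Lmo4, 0.46 for Stk39 and 0.61 for Cyth3, and after quantile normalization 0.40, 0.36, 0.28 and 0.55 in the same order. The fall under TAK-418 became -1.10, -1.13, -0.87 and -0.14 with centring and -0.64, -0.84, -0.62 and -0.02 with quantile normalization. No sign of either difference changed. The library names carry a second short tag beside that of the species, and no source used here says whether the deposited values were scaled to added reference chromatin. Whether the deposited or the centred differences are nearer to the amount of the mark therefore cannot be told. TAK-418 over control became -0.36 for Tab2, where it was 0.02 as deposited, -0.55 for Lmo4, -0.41 for Stk39 and 0.48 for Cyth3 with centring. Of the regions called for vehicle over control, 100% of 16047 were higher as deposited, 48.0% of 4225 with centring and 10.9% of 64 with quantile normalization.

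Library vehicle 3 had the lowest signal of the 3 vehicle libraries at all 4 leading regions, and its summed signal of 211103 was the lowest of that group, whose highest was 349291. The sums were 188092 to 246178 with TAK-418 and 163762 to 183664 in controls. Relative to its own median, vehicle 3 was the highest vehicle library at Tab2 and Stk39. Without it the vehicle rise was 1.69 for Tab2, 1.64 for Lmo4, 1.38 for Stk39 and 1.69 for Cyth3, and the difference of TAK-418 from vehicle was -1.66, -1.80, -1.41 and -0.83. Without it the regions called by limma for TAK-418 against vehicle numbered 15644, against 1693 with it, and those for TAK-418 against control 10566, against 0.

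Ranked by the smaller of rise and fall, Tab2's leading region was 2, Lmo4's 8, Stk39's 20 and Cyth3's 5364 of 17679. With centring the ranks were 3, 19, 70 and 3514. The regions beside Tab2 at the top were those of Rora (rise 1.503, fall 1.62), LOC100911871 (1.62, 1.47), Scap (1.45, 1.77) and Zbtb10 (1.42, 1.73). Rora is a nuclear receptor of the brain, Scap escorts the factors that switch on cholesterol synthesis, and Zbtb10 is a zinc finger repressor.

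Some of the leading regions were strong and some were short. Signal over all libraries picked the leading region of each gene, and the levels include the vehicle libraries that chose the genes, so the level is a description. By mean H3K9Ac over the 9 libraries, Tab2 (48.2), Lmo4 (20.8) and Stk39 (17.2) belonged to class 10 and Cyth3 (9.04) to class 7 of 10 equal classes. The median vehicle rise climbed with level, at 0.52 in class 1 and 0.98 in class 10, and the median difference of TAK-418 from vehicle was -0.21 and -0.70 in those classes. Tab2 and Lmo4 also lay in regions under 1000 bp, which made up 109 of the 17679 (0.617%) and held 24 of the 50 regions ranked highest. The spread of the rise between regions was wider there, with an SD of 0.32 against 0.21 in the 14805 regions of 5000 bp or more, and the median rise was 1.12 against 0.79. The mean signal of a short region is not comparable with that of a long one, which averages over its flanks.

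**Figure D3:**
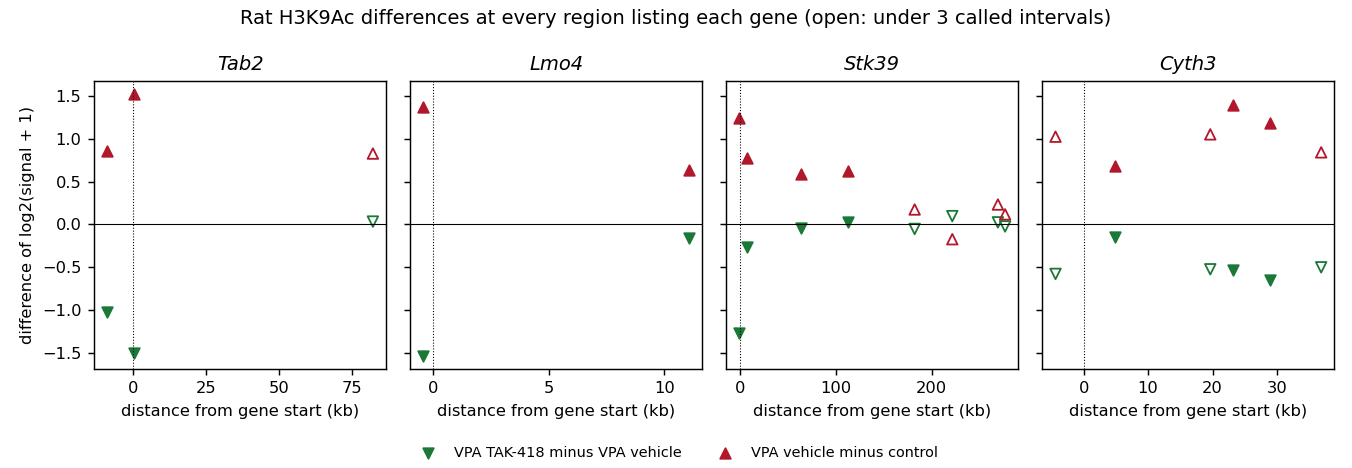
Rat H3K9Ac differences on the log2(signal + 1) scale (vertical axis) at every region that lists each gene. The horizontal axis is the distance in kb from the gene start to the region's middle, negative before the start. Green triangles pointing down are VPA TAK-418 minus VPA vehicle, red triangles pointing up are VPA vehicle minus control, and open symbols mark regions with an interval called in under 3 of 9 libraries. Along Stk39 both differences are largest at the start, and along Cyth3 the largest rise is 23143 bp inside the gene.

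The other regions of the genes are described next. Tab2 had 3 rat regions. The second, of 1999 bp and 8903 bp before the start, had 10.9, 12.8 and 7.76 with TAK-418, 24.1, 27.2 and 16.2 with vehicle, and 14.0, 11.6 and 9.76 in controls. Its differences were 0.86 for vehicle over control, -1.02 for TAK-418 over vehicle and -0.16 for TAK-418 over control, so the fall was there too while the rise was near the median of all regions. The third, 82197 bp downstream, had no H3K9Ac interval in any library.

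Lmo4 had 2 regions. The second, 17399 bp long inside the gene with 1 CpG island and 1 promoter counted in it, had 9.01, 8.23 and 6.84 with TAK-418, 10.1, 11.2 and 6.56 with vehicle, and 6.43, 4.74 and 5.35 in controls. Vehicle was 0.64 above control, TAK-418 was -0.16 from vehicle and 0.47 above control, with no overlap of TAK-418 and control. Stk39 had 8 regions, 4 of them with enough H3K9Ac intervals. The other 3 of these 4 lay inside the gene, 7207, 64007 and 112807 bp from the start. They were 0.78, 0.59 and 0.63 higher in vehicle than in control, and TAK-418 differed from vehicle by -0.27, -0.04 and 0.02. In all 3 the TAK-418 libraries lay above the controls without overlap, as they did in 55.6% of all regions. Among the regions with fewer intervals, only that 221507 bp inside the gene had a lower mean in vehicle (2.80) than in controls (3.14), with overlap.

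Cyth3 had 6 regions, all higher in vehicle than in control by 0.69 to 1.39, with TAK-418 between -0.65 and -0.15 from vehicle. The region of shortest listed distance, its middle 4357 bp before the start, had no H3K9Ac interval in any library. Its vehicle difference from control was 1.02 and its TAK-418 difference from vehicle -0.58. The start that the listed distances give lay in another region, of 14999 bp (chr12:14941000-14955999), with an H3K9Ac interval in 5 of 9 libraries. Mean signal there was 4.43 ± 0.65 with TAK-418, 5.23 ± 2.01 with vehicle and 2.74 ± 0.30 in controls (SD, n = 3). None of the 6 had an H3K4me3 interval in any rat library. Farther upstream, 7 regions that list no gene precede the next listed gene, Fam220a, and 3 of these had an H3K4me3 interval in all 9 libraries, with mean signals of 14.5, 8.81 and 5.00. At the strongest of them H3K9Ac averaged 7.79 with TAK-418, 10.3 with vehicle and 5.07 in controls. Whether it is a Cyth3 promoter cannot be read from the table.

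Across the 9 libraries, after median centring, H3K9Ac at Tab2 moved with that at Stk39 (Pearson r = 0.981) and Lmo4 (0.906), and Lmo4 with Stk39 (0.924). Cyth3 was apart, with r of 0.332, 0.226 and 0.173 to Tab2, Lmo4 and Stk39. These are descriptions over 9 libraries that share the group differences which chose the genes. The regions most like Tab2 were those of Plxna4a (0.992), Ing2 (0.991) and Trio (0.991). For Lmo4 they were Ccdc6 (0.985), Uri1 (0.984) and Zmat3 (0.982), and for Stk39 Ube2ql1 (0.997), Hnrnpf (0.994) and LOC500974 (0.991). For Cyth3 they were a region listing Gfap with 4 other genes (0.970), Sulf2 (0.969) and a region listing Fam96b, Rrad and Cdh16 (0.967).

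H3K4me3 at the same promoters was not used in choosing the genes and was tested. Under TAK-418 it exceeded the controls, and between TAK-418 and vehicle no difference was called. Tab2 had 183, 96.7 and 127 with TAK-418, 119, 125 and 137 with vehicle, and 40.4, 107 and 64.3 in controls. Vehicle lay above control without overlap in Tab2 alone, 1 of 3 genes against 50.8% of regions, and the other comparisons of Tab2 overlapped. Lmo4 had 91.1, 46.5 and 79.0 with TAK-418, 60.3, 65.7 and 62.0 with vehicle, and 31.8, 61.0 and 38.7 in controls. Stk39 had 67.1, 40.3 and 54.8 with TAK-418, 40.7, 48.4 and 51.3 with vehicle, and 24.2, 47.2 and 27.1 in controls. In each gene TAK-418 library 2 was the lowest of its group and control 2 the highest of the controls, and TAK-418 overlapped control there.

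Tested by limma over all 14296 H3K4me3 regions with Benjamini-Hochberg adjustment, 0 of 3 genes passed for vehicle over control. The log2 differences were 0.95 for Tab2 (SE 0.317, adjusted p = 0.0712), 0.56 for Lmo4 (SE 0.281, adjusted p = 0.141) and 0.55 for Stk39 (SE 0.265, adjusted p = 0.128), and 3 of 3 had an unadjusted p under 0.05. Of all regions 1.64% were called, and the median was 0.37. For TAK-418 over vehicle limma called 0 of 3 (0 of 3 at unadjusted p under 0.05), with differences of 0.05 to 0.18, adjusted p = 0.718 to 0.924, which turned negative in all 3 genes under both scalings (-0.17 for Tab2, -0.06 for Lmo4 and -0.03 for Stk39 with centring). Of all regions 0.224% were called, and the median was 0.20.

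For TAK-418 over control 3 of 3 were called higher, as were 72.8% of all regions, with 0.035% lower, so the count is not particular to these genes. Tab2 rose by 0.99 (SE 0.317, adjusted p = 0.00699 by limma), Lmo4 by 0.71 (adjusted p = 0.0225) and Stk39 by 0.73 (adjusted p = 0.0139), beside a median of 0.58. After median centring the differences were 0.38, 0.09 and 0.12, and limma called 0 of all regions (2321 at unadjusted p under 0.05). The 3 calls became 0 without control 1 or without TAK-418 library 1, and 1 without control 3 or without TAK-418 library 3. The 0 calls for vehicle over control became 3 without control 2 and 1 without TAK-418 library 2. Among all 14296 regions, leaving out single libraries gave 1757 to 12739 calls for TAK-418 over control and 11 to 5243 for vehicle over control. Cyth3 had no tested region, and its leading region had 2.33, 1.21 and 1.98 with TAK-418, 1.91, 1.77 and 1.83 with vehicle, and 1.42, 1.31 and 1.90 in controls.

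**Figure D4:**
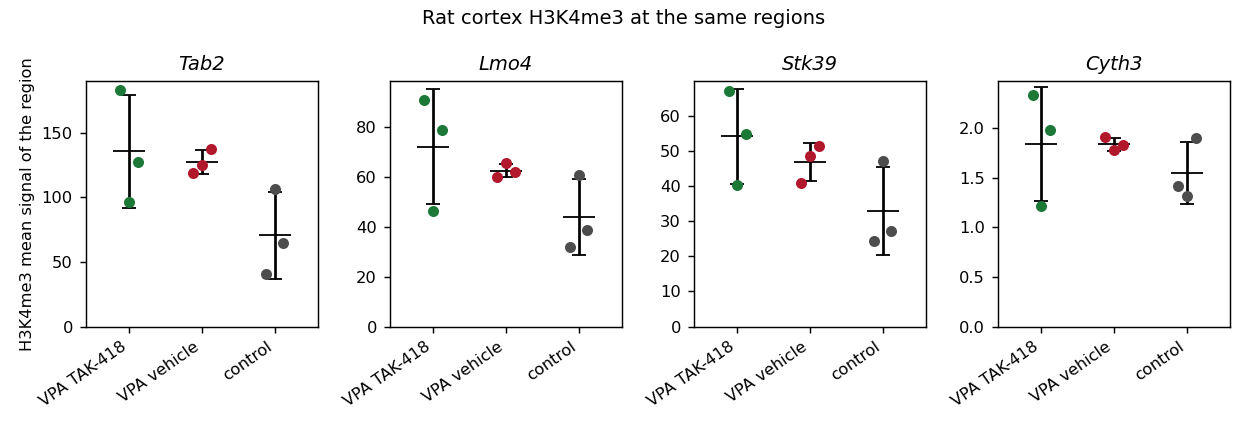
Mean H3K4me3 signal (vertical axis, deposited units, scaled separately for each gene) at the same rat regions in VPA rats given TAK-418, VPA rats given vehicle and controls. Points are libraries, the horizontal mark is the mean of 3 and the bar is 1 SD. At Tab2, Lmo4 and Stk39 the TAK-418 mean is at or above the vehicle mean, and Cyth3's region stays near the level of 2.

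With the leading regions included, 6 rat regions were tested for H3K4me3, 2 each for Tab2, Lmo4 and Stk39. Of these, 5 were called higher for TAK-418 over control, near the 72.8% of all regions, the exception being the second region of Tab2 (0.33, adjusted p = 0.212 by limma). None of the 6 was called for vehicle over control or TAK-418 over vehicle. H3K27me3 and H3K9me3 intervals were absent from the leading rat regions in all 9 libraries, where their signal was 0 to 3.89 and 0 to 3.00. The region 276607 bp downstream of the Stk39 start was the one tested for H3K9me3, with 4.14, 2.43 and 2.25 with TAK-418, 2.12, 2.89 and 1.96 with vehicle and 2.31, 1.38 and 1.92 in controls. It was called higher for TAK-418 over control (0.44, SE 0.165, adjusted p = 0.0367 by limma) although the groups overlapped. Of all H3K9me3 regions 39.5% were called in that comparison, nearly all higher, with 0.00383% lower. For vehicle over control it was 0.21 higher (adjusted p = 0.205 by limma), where 56.2% of regions were called.

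In poly I:C mice H3K9Ac at the 4 genes was lower than in controls, and no difference between TAK-418 and vehicle was called. The mouse leading regions were 12799 to 31599 bp long (mm10), each with a promoter and at least 1 CpG island, so their mean signals are not comparable with those of the shorter rat regions. Tab2 had 4.98, 4.88 and 3.51 with TAK-418, 4.35, 3.82 and 4.44 with vehicle, and 9.05, 6.69 and 5.70 in controls. Lmo4 had 5.74, 5.74 and 4.58 with TAK-418, 5.72, 4.28 and 5.57 with vehicle, and 11.9, 7.46 and 6.10 in controls. Stk39 had 4.92, 4.93 and 3.37 with TAK-418, 5.17, 3.22 and 4.89 with vehicle, and 9.31, 6.49 and 5.56 in controls. Cyth3, here represented by a region at its start, had 5.14, 4.71 and 3.37 with TAK-418, 4.62, 3.27 and 4.24 with vehicle, and 7.74, 6.90 and 5.05 in controls. Control 1 was the highest library at every gene.

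All 4 genes lay below control in vehicle without overlap, as did 70.5% of regions. By limma over 12747 regions, 4 of 4 were called lower for vehicle against control, as were 64.0% of all regions. Tab2 fell by 0.63 on the log2 scale (SE 0.232, adjusted p = 0.0320), Lmo4 by 0.58 (adjusted p = 0.0376), Stk39 by 0.57 (adjusted p = 0.0345) and Cyth3 by 0.58 (adjusted p = 0.0335), beside a median of -0.53. For TAK-418 over vehicle 0 of 4 were called (0 at unadjusted p under 0.05), with differences of 0.00 to 0.10, and limma called 0% of regions. For TAK-418 over control 0 of 4 were called (4 of 4 at unadjusted p under 0.05, 9487 of all regions), with differences of -0.57 to -0.48, adjusted p = 0.0559 to 0.0585. With centring the vehicle differences were -0.10 to -0.04, limma called 0 of all regions (996 at unadjusted p under 0.05), and the sign of TAK-418 over control turned for Cyth3 (0.025); with quantile normalization it turned for Cyth3 (0.024) and Lmo4 (0.011).

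The mouse calls depended on single libraries. The 4 for vehicle against control became 0 without control 1, control 2, vehicle 2, vehicle 3 or TAK-418 library 2, and 1 without TAK-418 library 1. The 0 for TAK-418 over control became 4 without control 3 and 3 without vehicle 2. Among all 12747 regions, leaving out single libraries gave 0 to 11882 calls for vehicle against control and 0 to 12069 for TAK-418 over control. All 9 mouse regions of the 4 genes with enough H3K9Ac intervals were called lower in vehicle, the gene-body regions of Stk39 and Cyth3 included, by 0.53 to 0.63. Of all regions 64.0% were called lower, with a median of -0.53, so this is not particular to these genes.

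**Figure D5:**
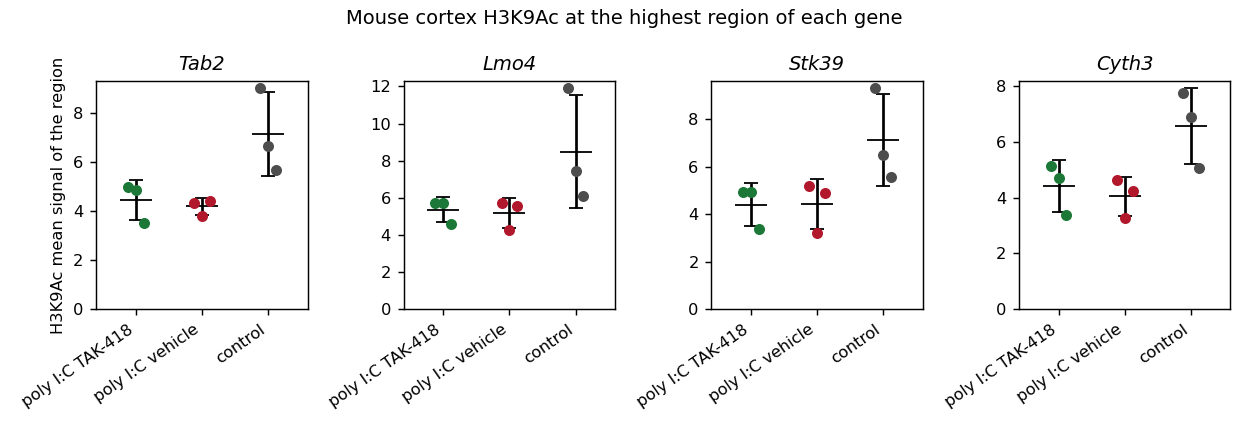
Mean H3K9Ac signal (vertical axis, deposited units, scaled separately for each gene) at the leading mouse region of the 4 genes in poly I:C mice given TAK-418, poly I:C mice given vehicle and controls. Points are libraries, the horizontal mark is the mean of 3 and the bar is 1 SD. The controls are highest at each gene, and TAK-418 and vehicle overlap.

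Mouse H3K4me3 ran the same way without a call. Tab2 averaged 9.57 ± 1.23 with TAK-418, 8.31 ± 1.40 with vehicle and 13.6 ± 6.66 in controls (SD, n = 3), and control 1 alone was at 21.2. Vehicle lay below control without overlap in 3 of 4 genes, against 52.5% of regions, the exception being Stk39. By limma, vehicle differed from control by -0.62 to -0.56 (adjusted p = 0.127 for each, 4 of 4 at unadjusted p under 0.05), with 0% of regions called and 4874 at unadjusted p under 0.05. Without control 3, 4 of 4 were called, and leaving out single libraries gave 0 to 7713 called regions of 12439. TAK-418 over vehicle was 0.09 to 0.27 (0 of 4 called, adjusted p = 1.0 for each, 0% of regions) and TAK-418 over control -0.49 to -0.35 (0 of 4, adjusted p = 0.296 for each, 0.00804% of regions). In H3K9me3 1 Stk39 region was tested in mice, with no call (adjusted p = 0.492 to 0.925 by limma, and 0% of regions called).

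Of 9 relatives, 7 had a tested rat region: the adaptor Tab1, the LIM-only genes Lmo1 and Lmo2, the second WNK-driven kinase Oxsr1, and the cytohesins Cyth1, Cyth2 and Cyth4. Their vehicle rise over control was 0.69 (Lmo2) to 1.08 (Cyth4), against 1.24 to 1.52 in the 4 genes, which were chosen for it. Their difference of TAK-418 from vehicle was -0.77 (Oxsr1) to -0.42 (Tab1), a range that holds Cyth3 (-0.53) and lies short of Tab2, Lmo4 and Stk39 (-1.53 to -1.27). Several of these regions are long and shared, 137799 to 151799 bp for the cytohesins. In H3K4me3 all 7 were called higher for TAK-418 over control, against 72.8% of regions, by 0.54 to 0.71, near the median of 0.58. In mouse H3K9Ac 8 of 9 were called lower for vehicle against control, against 64.0% of regions, with Tab3 the exception (-0.46, adjusted p = 0.0676 by limma).

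The pathway lists around the 4 genes are set beside the 72.8% of all regions called higher in rat H3K4me3 for TAK-418 over control. Among genes of the Tab2 signalling pathway, rat H3K4me3 was called higher for TAK-418 over control at 17 of 22 (median 0.64 against 0.58 for all regions). The LIM-partner list had 7 of 10 (0.70), the WNK and chloride transport list 12 of 13 (0.69) and the cytohesin and ARF list 19 of 23 (0.63). For vehicle over control, where 1.64% of regions were called, 1 of 22 genes of the Tab2 list was called by limma and no gene of the other lists. It was Map3k7, which had 22.8 ± 7.26 with vehicle and 13.1 ± 4.99 in controls (SD, n = 3; log2 difference 0.79, SE 0.232, adjusted p = 0.0483 by limma). Next by p in that list were the kinase Map2k4 (0.75, adjusted p = 0.0586) and the NF-kB subunit Nfkb1 (0.70, adjusted p = 0.0758). Ldb1, the LIM cofactor that binds Lmo4, had 0.67 (adjusted p = 0.0812), beside Ssbp4 (0.67, adjusted p = 0.0734), which shares its region with 5 genes, and Lhx2 (0.65, adjusted p = 0.0758). In the other lists the smallest p-values were those of Wnk2 (0.64), Wnk1 (0.66) and Cab39 (0.70), and of Git1 (0.74), Arf5 (0.74) and Iqsec3 (0.62), none called. With centring the Map3k7 call was lost, since limma then called 0 of all regions (1930 at unadjusted p under 0.05).

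In mouse H3K9Ac, where 64.0% of regions were called lower for vehicle against control, the count was 17 of 25 genes of the Tab2 pathway (median -0.55 against -0.53), 9 of 11 LIM partners (-0.55), 12 of 14 chloride transport genes (-0.60) and 20 of 23 of the cytohesin list (-0.66). Slc12a2, the chloride importer that Stk39 activates, fell by 0.73, with 4.97 ± 1.19 in vehicle and 8.90 ± 1.95 in controls (SD, n = 3; adjusted p = 0.0320 by limma). Its list also held Klhl2, which fell by 0.72, and Wnk2, by 0.76. Ldb1 fell by 0.78, Ssbp4 by 0.78 and Ssbp3 by 0.66, and in the cytohesin list Iqsec1 fell by 0.81, Psd2 by 0.78 and Cyth1 by 0.76. In the Tab2 pathway the ubiquitin cofactor Ube2v1 fell by 0.83, Tab1 by 0.75 and Nfkb1 by 0.73, each of these with adjusted p = 0.0320 by limma. With centring none of them was called, as no mouse H3K9Ac region was.

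As a check of the tissue, the neuronal markers Snap25, Rbfox3, Slc17a7 and Gad1 had H3K4me3 intervals in rat. So did the markers of astrocytes, oligodendrocytes and microglia. Syt1 had none in 3 or more libraries, and neither did Ttr and Folr1, markers of choroid plexus. Of the endothelial genes, Cldn5 had H3K4me3 intervals and Pecam1 had none in 3 or more libraries. The striatal genes Ppp1r1b and Adora2a had both H3K4me3 and H3K9Ac intervals. Alb, a liver gene, had H3K4me3 intervals and no H3K9Ac interval in 3 or more libraries. The marker lists moved with the groups, as nearly all regions did. Of all tested rat H3K9Ac regions, 99.7% had a higher mean in vehicle than in controls, with a median log2 difference of 0.78. The summed rat H3K9Ac of the 3 astrocyte genes was 15.1 to 21.0 with TAK-418, 15.9 to 26.7 with vehicle and 13.3 to 14.8 in controls. That of the 3 oligodendrocyte genes was 13.7 to 16.9 with TAK-418, 14.5 to 24.9 with vehicle and 10.7 to 13.2 in controls, and that of the 3 microglial genes 11.1 to 16.4, 11.7 to 22.1 and 9.78 to 10.8 in the same order. Their part in the results was not tested, and in bulk cortex fewer cells of a type and less of a mark per cell cannot be told apart.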

How the data were processed

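Histone ChIP-seq libraries of rat and mouse cortex were used as deposited. BWA 0.7.12 and the builds rn5 and mm10 are named in the submitters' processing notes. For the peak caller, bin width and scaling of libraries, nothing is stated in the sources used here. The authors deposited, per the file headers, 1 table of merged regions per species, with a mean signal and a highest signal per region and library, whether an interval was called, and the genes listed. No counts are given, so depth is unknown and counting error could not be stated. All library columns matched a sample by name (0 unmatched). Tissue was fixed with formaldehyde, per the labels' protocols.

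From these values, log2(signal + 1) was tested per region with limma 3.58.1 (R 4.3.3, trend and robust priors), 1 fit of 9 libraries per species and mark, on regions with an interval in at least 3 libraries, with Benjamini-Hochberg adjustment over all tested regions and a threshold of 0.05. The fit was tried on simulated rat H3K4me3 values, drawn with independent noise and without shifts shared by a whole library. That trial therefore does not bear on the shifts of nearly all regions described above. Rat H3K9Ac at the 4 genes was described without a test. The genes, their relatives and the pathway lists were chosen with earlier results of these data known. Named beside them are relatives, the 5 regions ranked highest by the smaller of rise and fall, the 3 regions most alike per gene, and per list the 3 genes of smallest p in rat H3K4me3 and in mouse H3K9Ac for exposed vehicle against control. Alternatives covered the scaling (as deposited, median centring, quantile), pseudocount, filter, libraries fitted, region or gene as the unit and priors. Others were the highest signal, replicate block, Cyth3's region of shortest listed distance and leaving out each library. Figures were drawn with matplotlib 3.10.9. The summed signal of the neuronal markers is not reported here.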

Additional observations from a re-analysis of the deposited data

Results flagged for a closer look

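The vehicle groups of the 2 species moved in opposite directions from their controls: every rat VPA vehicle library was above, and every mouse poly I:C vehicle library below, all its controls. For H3K9Ac this held at all 4 genes. Of all H3K9Ac regions, 85.8% in rat lay wholly above and 70.5% in mouse wholly below the controls in vehicle. The log2 difference of vehicle over control was 1.52 in rat and -0.63 in mouse for Tab2, 1.37 and -0.58 for Lmo4, 1.24 and -0.57 for Stk39, and 1.39 and -0.58 for Cyth3. For H3K4me3 it held at Tab2 alone, with 0.95 in rat and -0.56 in mouse, where the same shares were 50.8% and 52.5%. The difference between the species was not tested: exposure, species, region length and genome build all differ between the 2 sets, and the medians of all H3K9Ac regions, 0.78 in rat and -0.53 in mouse, were opposite as well.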

How the results depend on the processing

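Both scalings ended every tested call at the leading regions of the 4 genes. With median centring and with quantile normalization, the 3 rat H3K4me3 calls for TAK-418 over control became 0 and 0, and the 4 mouse H3K9Ac calls for vehicle against control became 0 and 0. Without a filter on low values both also became 0. Fitting only the 6 libraries compared left 1 and 1, and the highest signal left 2 and 0. Over all regions limma called 0 and 4 without the filter, 5961 and 4776 with the 6 libraries, and 11640 and 1 with the highest signal. Mouse H3K9Ac calls for TAK-418 over control, 0 as reported, became 4 with no trend or robust prior and 4 with the replicate block. Of all 12747 regions, 8143 and 10771 were called in those fits. Leaving out single libraries gave 0 to 3 for both rat H3K4me3 comparisons with control, and 0 to 4 for both mouse H3K9Ac comparisons with control and for mouse H3K4me3 vehicle against control. The counts for TAK-418 over vehicle in rat H3K4me3 and both mouse marks, and for TAK-418 over control in mouse H3K4me3, were 0 under every alternative run.

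Over 786 values of single genes under alternatives, 677 kept their call status or, where untested, moved by less than the SD within groups. A further 65 lost a call, 23 gained one, 21 untested values moved by at least that SD and 0 reversed. Among the 786, 43 uncalled or untested values had another sign than in the main fit. The untested rat H3K9Ac rise stayed between 1.12 and 1.73 when single libraries were left out. For Cyth3's region of shortest listed distance the 3 differences were 1.02, -0.58 and 0.45. That region had no H3K9Ac interval and did not hold the gene start that the distances give. Regions called over all rat H3K9Ac, 16047 for vehicle over control, ranged between 64 and 19910, and those for TAK-418 over vehicle, 1693, between 0 and 15644, with 6586 under the replicate block. The 0 for TAK-418 over control ranged up to 10566, without vehicle 3. For rat H3K4me3 the 10408 called for TAK-418 over control became 6913 with the replicate block and 5961 with the 6 libraries compared, and for mouse H3K9Ac the 8159 became 10634 and 4776. Same-numbered libraries did not regularly deviate together. Over 72 pairs the correlation was -0.601 to 0.616, with 27 over 0.1, and 1 of 24 comparisons had all 3 over 0.1. As the deviations are from means of 3 libraries, these correlations cannot show whether a number stands for something shared between groups. The numbers are not treated as pairs because no label says that they pair animals.

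With 3 libraries a group and no counts, precision is limited by the spread between libraries, and a single library decides many calls.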
